A study of Homo sapiens with 9 samples.

Results

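The neighbouring cytokine genes *IL2* and *IL21* on chromosome 4 held 9 regions of open chromatin, of 40703 found across the genome in Jurkat cells. A region was any stretch covered by overlapping or touching FAIRE-seq peaks of 4 deposited peak lists, and it was assigned to the locus when it lay in the body of *IL2* or *IL21* or within 100 kb of either transcription start site (TSS). By this rule 6 regions belonged to *IL2* and 6 to *IL21*, with 3 counted at both. FAIRE, formaldehyde-assisted isolation of regulatory elements, recovers from fixed and sonicated cells the DNA that is not held by nucleosomes, and sequencing it shows where chromatin is open. The cells were Jurkat clone E6-1, a human T cell leukaemia line.

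The design had 4 cell states, each pre-treated with DMSO or with 15 μM rottlerin, a kinase inhibitor, for 1 h. Cells were non-stimulated (NS), stimulated with PMA and ionomycin for 4 h by the labels, where the methods of the study state a shorter time (ST), rested for 1 day after withdrawal of the stimulus (SW), or stimulated again for 2 h after that rest (RS). Of the 9 samples, which include a total input library of unenriched DNA, 4 have a peak list here and the other 5 were not analysed here. By the labels, the lists come from NS and from SW cells, after DMSO and after rottlerin, with 1 library each.

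The assignment of the lists is in doubt. Merging every peak of the 4 lists, unplaced contigs included, gave 40731 regions, and this is the total that the methods of the study give for the merged peaks of its DMSO libraries across all states. The lists are therefore named only by their labels, and no value below is read as an effect of rottlerin or of stimulus withdrawal. The 40703 regions left on the autosomes, X and Y also equal the number that the study kept. The methods of the study describe peak calling for its DMSO samples and mention none for rottlerin-treated cells. Were the lists the DMSO libraries of the study, they would come from NS, ST, SW and RS cells, and none from rottlerin-treated cells. NS and SW after DMSO are among the libraries that both sources name, and NS and SW after rottlerin are given by the labels alone. On the autosomes, X and Y the lists held 18977 to 30409 peaks covering 6.69 to 11.5 Mb, with median fold enrichments of 4.03 to 4.08 over total input. Depth cannot be read from such lists, and "no peak" below means only that none was called at the unknown depth of that library. With 1 library per list no spread between replicates and no p-value can be given. At the TSS, 13 of 16 T cell marker genes had a peak within 1 kb in at least 1 list, against 0 of 6 B cell, 1 of 6 myeloid and 0 of 4 erythroid marker genes. By list, in the order NS and SW after DMSO, then NS and SW after rottlerin, T cell counts were 9, 9, 10 and 12. *CD2*, *CD7* and *GATA3* had no such peak, and 45.0% of all protein-coding genes had one in at least 1 list.

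*IL2* encodes interleukin-2, the growth factor that activated T cells secrete, and *IL21* encodes interleukin-21, which acts on B cells, T cells and natural killer cells. Both cytokines signal through receptors that contain the common gamma chain, encoded by *IL2RG*, and on through JAK1, JAK3 and the STAT proteins. Transcription of *IL2* is nearly silent in resting T cells and is switched on by T cell receptor signals or by PMA and ionomycin, which together activate AP1, NFκB and NFAT, and NFAT and AP1 bind side by side at many cytokine enhancers.

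Both genes lie on the minus strand. On GRCh37, the assembly also called hg19, *IL2* (ENSG00000109471) occupies chr4:123372625-123377880 and *IL21* (ENSG00000138684) occupies chr4:123531263-123542221. Their TSSs are 164 kb apart, and 153 kb without another protein-coding gene separates the *IL2* TSS from the 3′ end of *IL21*. Regions are named by the distance in kb from the *IL2* TSS to their middle, and all of them except the one at the TSS lie upstream of *IL2* and downstream of *IL21*.

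The sequences shown are the *IL2* promoter and 4 of the regions, chosen by the lists in which they had a peak. These are the 46.7-kb, 83.5-kb and 128-kb regions, which had a peak in each of the other 3 lists and none in the list labelled NS after DMSO, and the 122-kb region, the one with a peak in all 4 lists. The promoter is the 250 bases before the TSS on the strand of the gene (chr4:123377881-123378130, minus strand, RefSeq sequence found without a mismatch in GRCh37). This TSS is the outermost start in the gene record, so promoter sequence next to an inner start is not in that line. The others are the central 300 bases on the plus strand of GRCh37, at chr4:123424394-123424693, chr4:123461256-123461555, chr4:123499716-123500015 and chr4:123505745-123506044 in the order of the lines. Capitals mark matches to a loose AP1 motif (TGANTCA, where N is any base) and to the core NFAT motif (GGAAA, or TTTCC on the other strand).
*IL2* promoter: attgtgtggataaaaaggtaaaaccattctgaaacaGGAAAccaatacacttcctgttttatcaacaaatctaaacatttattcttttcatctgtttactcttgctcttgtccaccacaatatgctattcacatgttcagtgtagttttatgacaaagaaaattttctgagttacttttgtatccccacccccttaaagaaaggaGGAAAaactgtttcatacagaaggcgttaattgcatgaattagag
46.7-kb region: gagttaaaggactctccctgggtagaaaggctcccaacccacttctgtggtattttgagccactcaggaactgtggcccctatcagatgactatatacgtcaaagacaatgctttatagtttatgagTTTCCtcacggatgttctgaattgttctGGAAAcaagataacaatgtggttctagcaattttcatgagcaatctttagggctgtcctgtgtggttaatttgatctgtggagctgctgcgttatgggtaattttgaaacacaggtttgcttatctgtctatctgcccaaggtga
83.5-kb region: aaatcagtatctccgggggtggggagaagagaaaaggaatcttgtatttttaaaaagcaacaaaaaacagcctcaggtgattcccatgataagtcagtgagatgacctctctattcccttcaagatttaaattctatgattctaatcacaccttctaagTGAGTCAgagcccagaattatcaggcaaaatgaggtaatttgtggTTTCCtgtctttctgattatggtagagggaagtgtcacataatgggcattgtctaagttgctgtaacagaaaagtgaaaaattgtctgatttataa
122-kb region: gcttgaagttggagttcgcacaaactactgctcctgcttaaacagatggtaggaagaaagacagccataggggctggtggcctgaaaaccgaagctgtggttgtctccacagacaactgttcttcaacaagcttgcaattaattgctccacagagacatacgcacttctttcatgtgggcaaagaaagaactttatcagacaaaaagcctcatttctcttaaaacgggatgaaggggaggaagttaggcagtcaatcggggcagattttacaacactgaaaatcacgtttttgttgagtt
128-kb region: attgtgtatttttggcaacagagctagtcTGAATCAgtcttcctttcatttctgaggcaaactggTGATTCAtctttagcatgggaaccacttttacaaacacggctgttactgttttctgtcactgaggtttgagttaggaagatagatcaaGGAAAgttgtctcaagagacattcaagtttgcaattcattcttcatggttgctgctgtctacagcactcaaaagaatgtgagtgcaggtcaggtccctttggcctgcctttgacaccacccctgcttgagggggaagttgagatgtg

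The open chromatin of the locus lay mostly between the genes. Of the 9 regions, 8 overlapped no annotated gene and stood in the interval from the *IL2* TSS to the 3′ end of *IL21*. No region lay in the body or at the TSS of *IL21*, and none within 100 kb downstream of *IL2*, where *ADAD1* is found, or within 100 kb upstream of *IL21*. The regions were 197 to 798 bp wide with a median of 395 bp, against a median of 294 bp over all regions. They covered 4361 bp over a span of 129 kb, with spaces of 1200 to 46304 bp between neighbours. Outside the window, the nearest region on the *IL2* side was at chr4:123077978-123078329, 299.6 kb from the *IL2* TSS within *BLTP1*. The nearest on the *IL21* side was at chr4:123653526-123653952, 111 kb from the *IL21* TSS over the TSS of *CETN4P*, and it had a peak in all 4 lists.

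**Figure D1:**
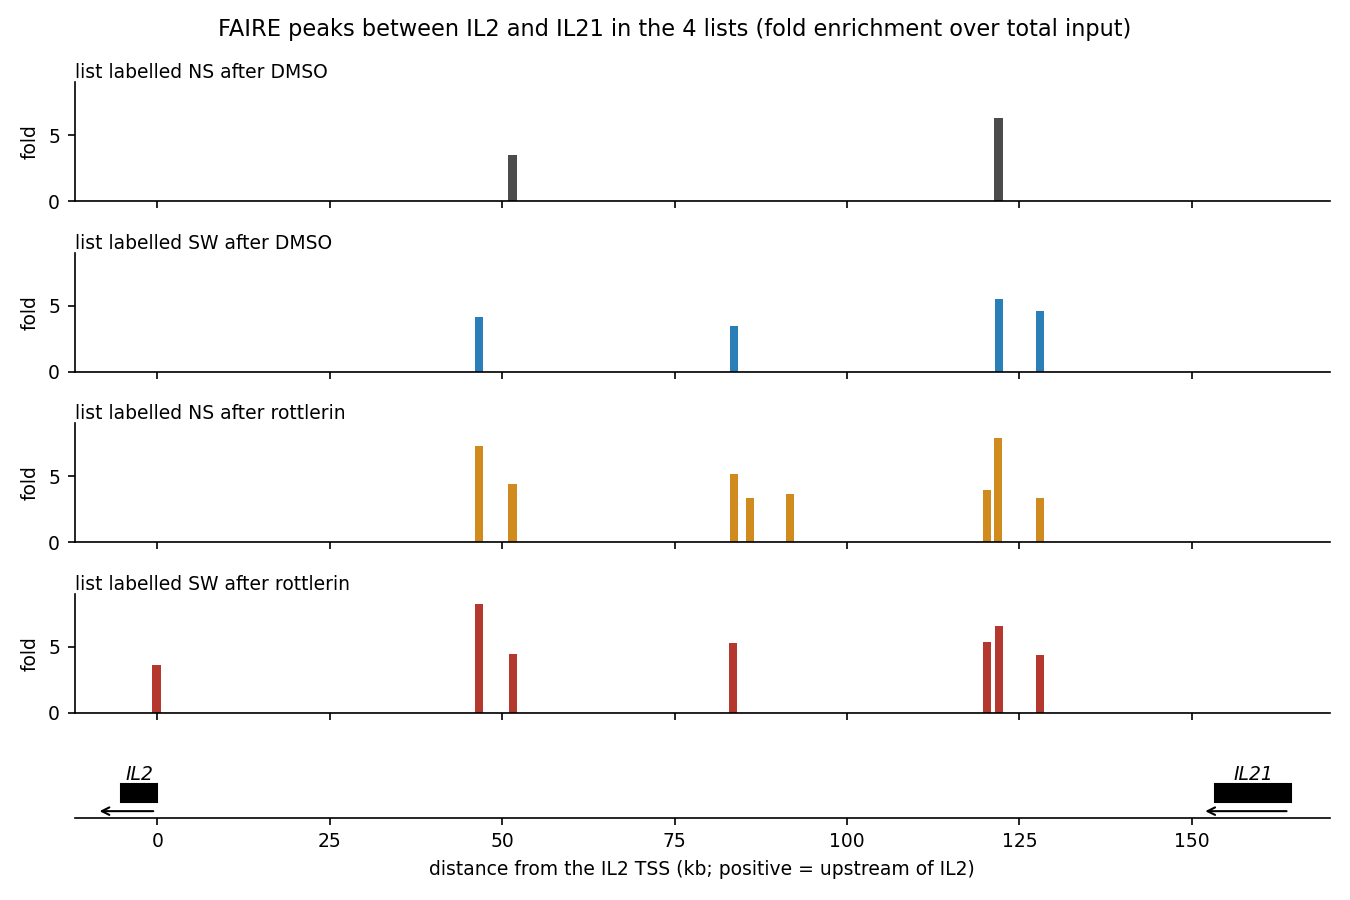
Peaks in the 9 regions along the interval from *IL2* to *IL21*, 1 track per list, with bar height the fold enrichment over total input and the horizontal axis the distance from the *IL2* TSS in kb. Bars are drawn wider than the peaks, and arrows show the direction of transcription. The list labelled NS after DMSO holds 2 peaks and the others 4, 8 and 7.

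The region over the *IL2* promoter had a peak in a single list. At chr4:123377451-123378049 (599 bp), it covered 169 bp before the TSS and 430 bp of the first exon, of which 285 bp are 5′ untranslated and 145 bp are coding. These lengths are counted from the outermost start in the gene record. For an inner start, some of the bases counted as untranslated would be promoter. The list was the one labelled SW after rottlerin, with a fold enrichment of 3.61 and a q-value of 0.00802. This fold enrichment exceeded that of 31.6% of the peaks in its list, and the score, 10 times the −log10 of the q-value, exceeded that of 8.27%. The nearest peak in each of the other 3 lists was 46314 to 51249 bp away. Across 20090 protein-coding genes, 45.0% had a peak within 1 kb of the TSS in at least 1 list and 34.3% in the list labelled NS after DMSO, where *IL2* and *IL21* had none.

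The 46.7-kb region (chr4:123424354-123424733, 380 bp) reached the highest fold enrichment of the locus. It had no peak in the list labelled NS after DMSO, a fold enrichment of 4.16 in the list labelled SW after DMSO, 7.33 in the list labelled NS after rottlerin and 8.24 in the list labelled SW after rottlerin. In the last 2 lists the region was stronger than 98.5% and 99.4% of peaks, but in the list labelled SW after DMSO than 55.6%. Its log2 ratio between the lists labelled SW after rottlerin and SW after DMSO was 0.98, above that of 99.8% of the 17128 regions called in both, whose median was 0.12. Between the lists labelled NS after rottlerin and SW after DMSO the log2 ratio was 0.82, above that of 99.3% of 14373 regions.

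At 83.5 kb (chr4:123461248-123461564, 317 bp) the order of the lists was the same at lower values. No peak was called in the list labelled NS after DMSO, and the fold enrichment was 3.50, 5.17 and 5.26 in the lists labelled SW after DMSO, NS after rottlerin and SW after rottlerin. The log2 ratios of the last 2 lists to the list labelled SW after DMSO were 0.56 and 0.59, above those of 96.4% and 96.3% of the regions called in both lists.

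The 128-kb region (chr4:123505698-123506092, 395 bp), the nearest to *IL21*, had another order. Without a peak in the list labelled NS after DMSO, it was highest in the list labelled SW after DMSO, at 4.61, and had 3.36 and 4.35 in the lists labelled NS and SW after rottlerin. The peak in the list labelled NS after rottlerin was weak, with a q-value of 0.0193 and a score above that of 3.81% of its list. Its log2 ratio between the lists labelled NS after rottlerin and SW after DMSO was -0.45, above that of 3.21% of regions. Regions called in the same 3 lists therefore differed in which list was highest, and no replicate shows how far a fold enrichment varies between libraries of one state.

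Accessibility in all 4 lists was found at 122 kb alone. This region (chr4:123499475-123500256, 782 bp) lies 31.4 kb beyond the 3′ end of *IL21* and had fold enrichments of 6.27, 5.54, 7.88 and 6.61 in the lists labelled NS after DMSO, SW after DMSO, NS after rottlerin and SW after rottlerin. It was stronger than 89.0% to 99.3% of the peaks of each list and was the highest region of the locus in every list except the one labelled SW after rottlerin, where the 46.7-kb region was higher. The log2 ratio to the list labelled NS after DMSO was -0.18, 0.33 and 0.07 in the other lists, in the order above.

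The 51.5-kb region (chr4:123429223-123429555, 333 bp) was the other one with a peak in the list labelled NS after DMSO. Its fold enrichment there was 3.54, with a q-value of 0.0172, and it was 4.41 and 4.45 in the lists labelled NS and SW after rottlerin. No peak was called in the list labelled SW after DMSO. The peak in the list labelled NS after DMSO was 167 bp wide, the lowest width in that list.

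At 120.3 kb, a narrow region of 197 bp (chr4:123498078-123498274) stood 1200 bp from the 122-kb region. Its fold enrichment was 3.96 in the list labelled NS after rottlerin and 5.38 in the list labelled SW after rottlerin, with no peak in either list labelled DMSO. The 86.0-kb region (chr4:123463463-123464260, 798 bp) and the 91.7-kb region (chr4:123469316-123469875, 560 bp) had peaks only in the list labelled NS after rottlerin, at 3.34 and 3.67. Both were broad and weak, since they were wider than 93.0% and 85.1% of the peaks of that list but stronger than 18.6% and 32.4% of them.

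**Figure D2:**
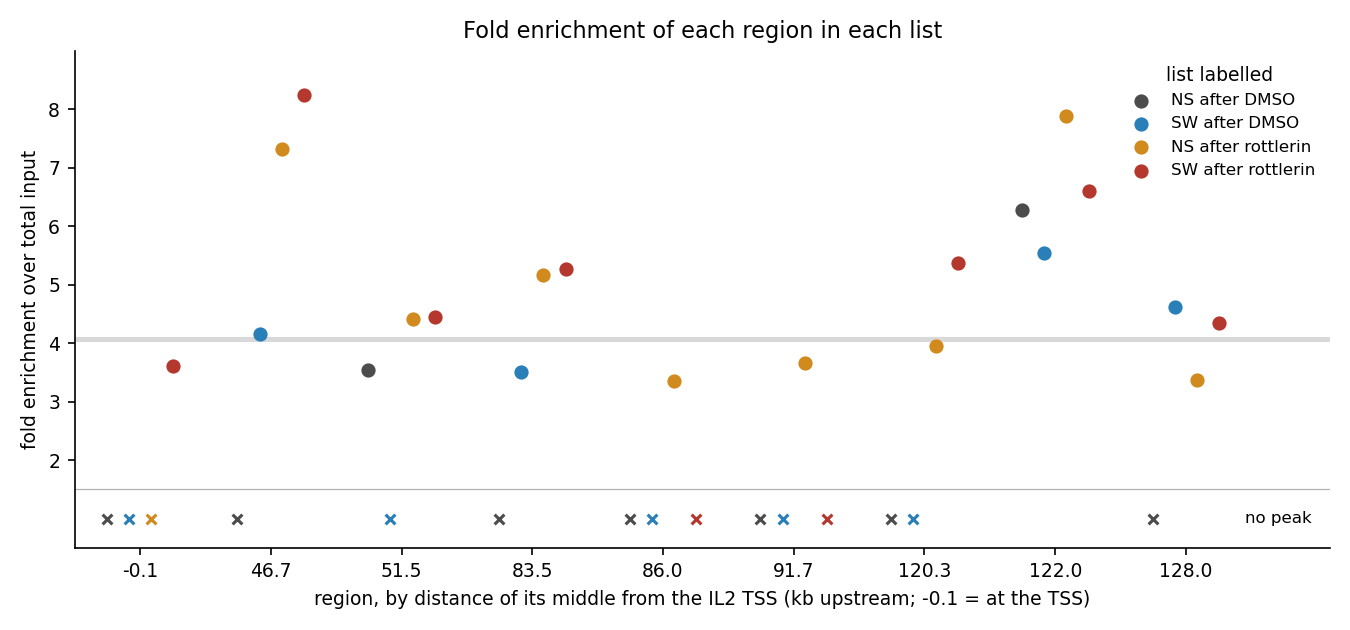
Fold enrichment over total input of each of the 9 regions (vertical axis) in each of the 4 lists (colours), ordered by distance from the *IL2* TSS in kb. Crosses mark a region without a peak in that list, and the grey band spans the lists' median fold enrichments (4.03 to 4.08). The 46.7-kb and 122-kb regions stand highest.

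Counted over the locus, 2, 4, 8 and 7 of the 9 regions had a peak in the lists labelled NS after DMSO, SW after DMSO, NS after rottlerin and SW after rottlerin. Among all 40703 regions these lists had a peak in 46.5%, 49.3%, 58.4% and 74.5%. Without a peak in the list labelled NS after DMSO were 7 of 9 regions, or 77.8% (95% Wilson interval 45.3% to 93.7%, counting error only), against 53.5% of all regions, which lies inside that interval. A peak in all 4 lists was held by 1 of 9 regions against 26.6% of all regions.

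Single combinations of lists rest on 3 regions or fewer. A peak in the other 3 lists but not in the one labelled NS after DMSO was found in 3 of 9 regions against 7.08% of all regions, and the Wilson interval of that share was 12.1% to 64.6%. Peaks found only in the list labelled NS after rottlerin accounted for 2 of 9 regions against 8.42%, and peaks only in the list labelled SW after rottlerin for 1 of 9 against 18.2%. None of the 9 had a peak in the list labelled NS after DMSO alone, against 7.83% of all regions, and 0 of 9 allows a share of up to 29.9% (Wilson). The regions are neighbours within 1 locus and are not replicates of a state.

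**Figure D3:**
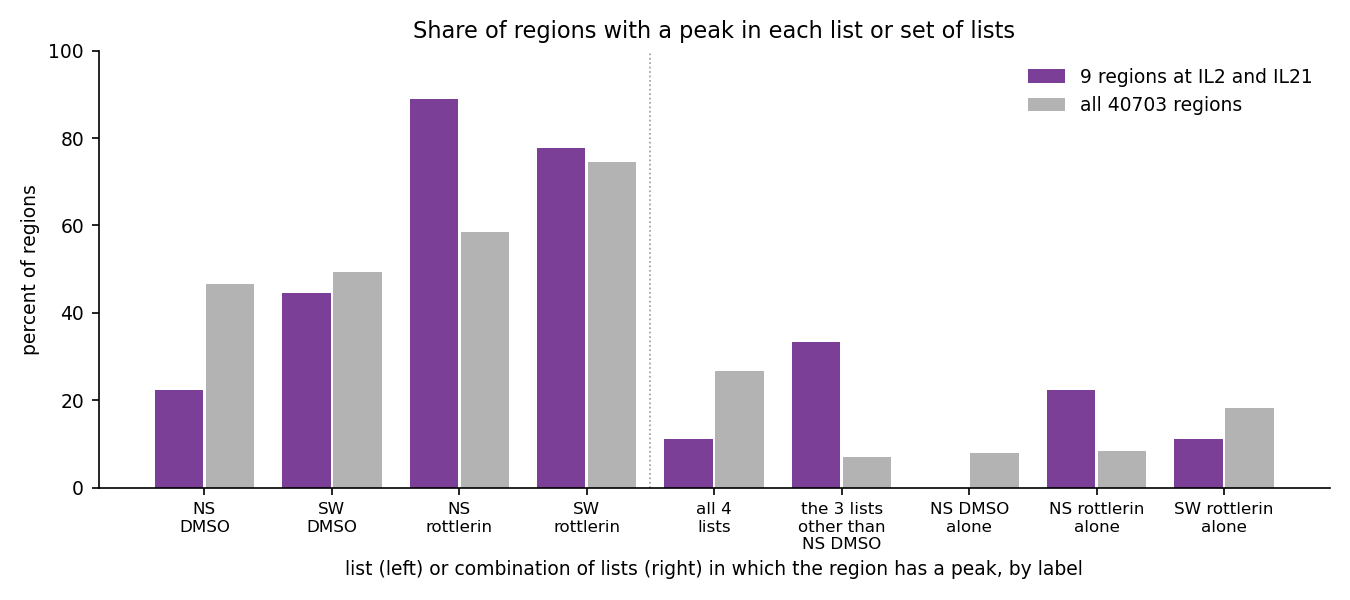
Percent of the 9 regions at *IL2* and *IL21* (purple) and of all 40703 regions (grey) with a peak in each list (left) or in a combination of lists (right), named by label. The shares at the locus are 22.2%, 44.4%, 88.9% and 77.8% in the 4 lists, and each step is 1 region of 9.

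The lists differ in length, so the count was repeated with the 18977 highest-scoring peaks of each list. Of the 9 regions 6 then remained, and those at the *IL2* promoter, 86.0 kb and 91.7 kb were no longer present. Of the 6, the lists labelled NS after DMSO, SW after DMSO, NS after rottlerin and SW after rottlerin had a peak in 2, 4, 4 and 5, so that the list labelled NS after rottlerin no longer held the most. Over all regions of the shortened lists, the same 4 lists had a peak in 18923, 18905, 18938 and 18941 of 32377. Among the 6, 4 had no peak in the list labelled NS after DMSO, against 41.6% of all 32377 regions so defined. The 46.7-kb and 83.5-kb regions still had peaks in the other 3 lists, whereas the 128-kb region kept those in the lists labelled SW after DMSO and SW after rottlerin.

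By number of regions neither gene stood apart, but the interval between them was dense. *IL2* and *IL21* had 6 regions each, and 46.0% of the 20090 protein-coding genes had as many or more, with a median of 5 and quartiles of 3 and 8. Each had 5 regions without a peak in the list labelled NS after DMSO, a number that 17.6% of genes reached. The interval of 153 kb held 8 regions, or 5.22 per 100 kb. Among 1493 intervals of 100 to 250 kb between neighbouring protein-coding genes the median was 0.912 per 100 kb, 30.2% held none, and 97.1% held fewer per 100 kb than the interval between *IL2* and *IL21*.

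Of 18 genes listed for the wider common gamma chain family, other than *IL2* and *IL21*, 4 had no region, against 8.36% of all protein-coding genes. A peak within 1 kb of the TSS in at least 1 list was found at 5 of the 18, against 45.0%. The list holds cytokines, receptors, JAK and STAT genes of the common gamma chain, and also *TSLP*, whose receptor uses the *IL7R* chain without the common gamma chain. None of the 5 other cytokine genes had a TSS peak, and *IL7*, *IL9* and *IL15* had no region at all. *IL2RG*, which encodes the common gamma chain, had TSS peaks in all 4 lists with fold enrichments of 3.60 to 4.55. *STAT3*, the main STAT protein downstream of interleukin-21, also had them in all 4, at 3.83 to 4.61.

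*IL2RA*, the inducible alpha chain of the interleukin-2 receptor, had TSS peaks only in the lists labelled SW after DMSO and SW after rottlerin, at 3.54 and 3.35. It had 11 regions, 6 of them (54.5%) without a peak in the list labelled NS after DMSO, near the 53.5% of all regions. *IL21R*, the receptor of interleukin-21, had TSS peaks in all lists except the one labelled NS after rottlerin, at 3.61, 3.83 and 3.63, and 8 of its 10 regions had no peak in the list labelled NS after DMSO. *JAK3*, the kinase bound to the common gamma chain, had TSS peaks in all lists except the one labelled NS after DMSO, at 3.29 to 3.78. A gene's TSS here is the outermost start in its record, so a peak at an inner start is not counted.

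**Figure D4:**
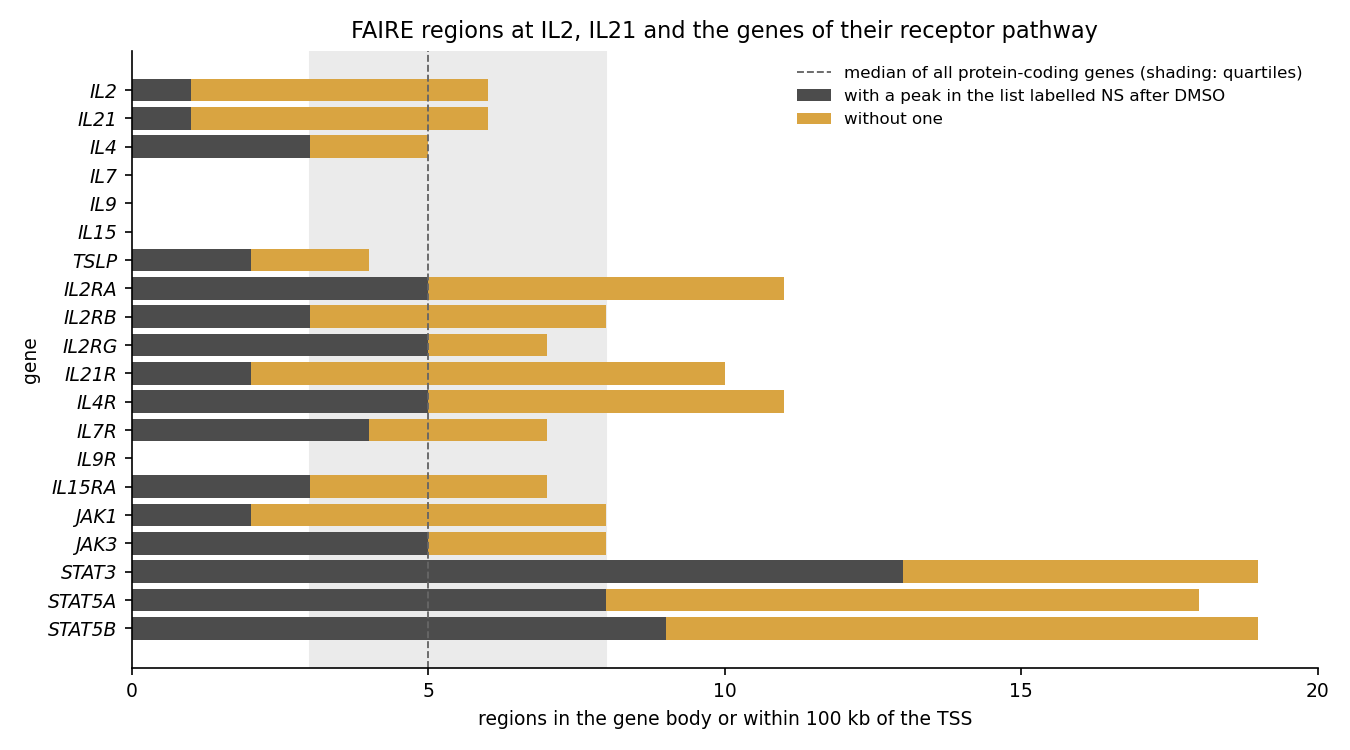
Number of regions in the gene body or within 100 kb of the TSS for *IL2*, *IL21* and 18 genes listed for the wider common gamma chain family, divided by whether the region has a peak in the list labelled NS after DMSO. The dashed line is the median of all protein-coding genes (5) and the shading spans their quartiles (3 to 8). *IL2* and *IL21* each have 1 region with such a peak and 5 without.

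Regions without a peak in the list labelled NS after DMSO made up 53.8% to 70.0% at other inducible loci, against 53.5% of all regions. They were 14 of 20 regions at *TNF*, *LTA* and *LTB*, 8 of 12 at *IL3*, *CSF2* and *CSF1*, 7 of 13 at *IL4*, *IL5* and *IL13* and 7 of 12 at *CD69*, and each of these shares lies inside the interval for *IL2* and *IL21*. Genes with the most similar summed fold enrichments over the 4 lists, by Euclidean distance on the log2(1 + sum) scale, were *CEBPG*, *PEPD*, *TNFRSF10C*, *EPAS1* and *FAM110A* for *IL2*, at distances of 0.242 to 0.373. For *IL21* they were *LCTL*, *NCK2*, *ZWILCH*, *METAP2* and *ZHX2*, at distances of 0.300 to 0.368. Within these lists *CEBPG* and *PEPD* on the one hand, and *LCTL* and *ZWILCH* on the other, are neighbours and share regions.

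In sequence the regions were GC-poor. The GC content of the central 300 bp was 34.7% to 44.0% with a median of 38.7%, and 81.2% of all regions had more than that median, their own median being 46.3%. CpG dinucleotides numbered 0 to 6, with a median of 1 against 4 over all regions. The 122-kb region had the most, with 6.

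Matches to the AP1 motif, searched with any base in the middle, occurred in 3 of the 9 regions. Only the match in the 83.5-kb region had G or C in the middle, and the others had A or T. The 83.5-kb region had TGAGTCA at chr4:123461415-123461421, and the 128-kb region had TGAATCA at chr4:123505774-123505780 and TGATTCA at chr4:123505810-123505816, all in capitals in the lines above. The third, TGATTCA at chr4:123463731-123463737, was in the 86.0-kb region. None of these 3 regions had a peak in the list labelled NS after DMSO, but the same held for 7 of the 9 regions at the locus. Over all regions the motif was held by 25.8% of those without such a peak and 8.83% of those with one. The share at the locus was 33.3% (Wilson 12.1% to 64.6%) against 17.9% of all regions.

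The short NFAT core was held by 6 of 9 regions against 71.0% of all regions. In the 46.7-kb region 2 NFAT matches lay within 20.5 bp of the middle, with 3 RUNX matches (TGTGGT) and 2 GATA matches in the same 300 bp, and no AP1 match. GATA matches (AGATAA or TGATAA) occurred in 6 of 9 regions, or 66.7% (Wilson 35.4% to 87.9%), against 31.5% of all regions. Of the 11 families searched, only GATA had its share of all regions outside the interval. Over regions without a peak in the list labelled NS after DMSO the GATA share was 37.0%, inside that interval. It was 25.2% over regions with such a peak. The regions at the locus were GC-poor, and whether base composition has a part in the GATA share was not tested. NFAT and ETS matches did not overlap in any of the 9 windows, and in the 83.5-kb region an NFAT and a RUNX match shared 1 base. The 122-kb region had neither an AP1 nor an NFAT match but 2 ETS matches (AGGAAG), 1 RUNX and 1 GATA match.

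For every family other than GATA, AP1 and NFAT included, the share of all regions lay inside the Wilson interval of the share at the locus. RUNX matches were held by 4 of 9 regions against 32.8%, TCF matches (CTTTGA) by 4 against 23.2%, ETS matches (CGGAAG or AGGAAG) by 3 against 50.4%, and E-box matches of bHLH factors (CACCTG, and with it the variants CAGCTG and, as the last, CATCTG) by 4 against 48.0%. The OCT (ATGCAAAT), NFκB (GGANNTTCC), EGR (GCGTGGG) and CRE (TGACGTCA) motifs had no match in these windows, and over all regions they were held by 0.985% to 4.25%. Both strands were searched throughout. The 250 bases before the outermost *IL2* start had 2 NFAT matches and no AP1 match. Of the promoters of 20090 protein-coding genes, taken in the same way, 54.4% held an NFAT match and 5.46% an AP1 match. Sequence next to an inner *IL2* start was not part of this count. The central 300 bp of the region over the *IL2* TSS held 2 further NFAT matches and no AP1 match.

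**Figure D5:**
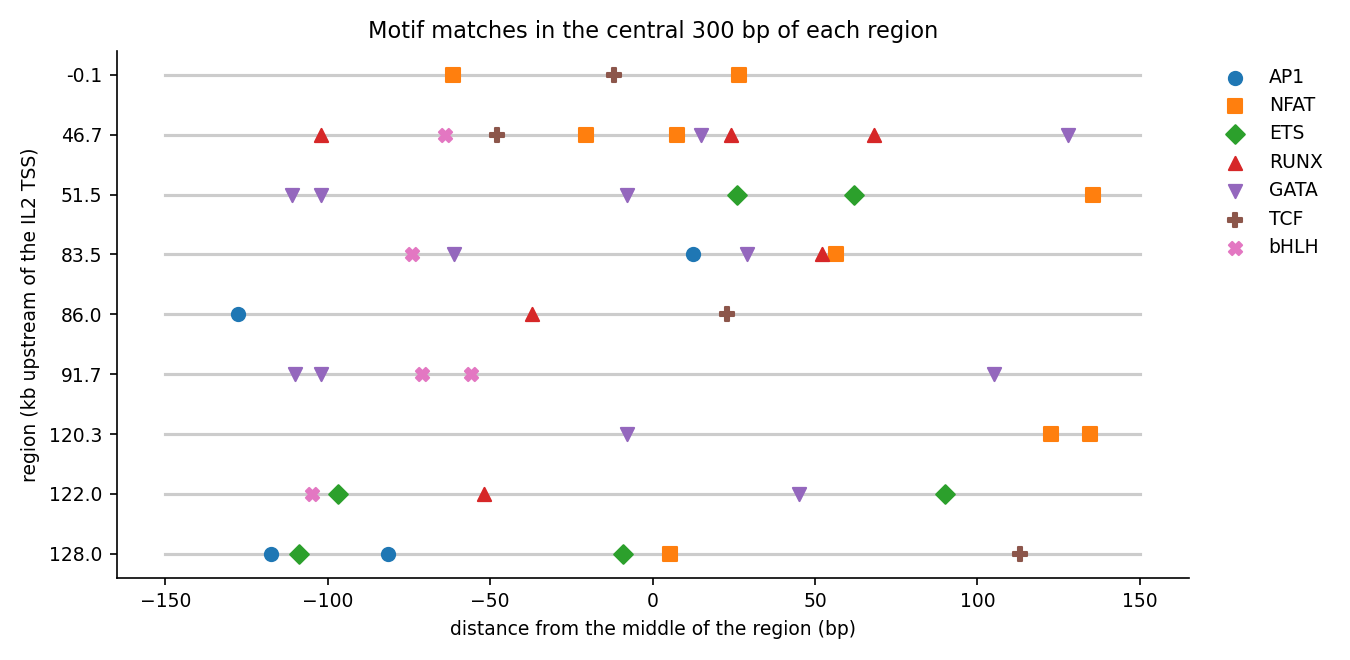
Positions of motif matches (symbols, by factor family) relative to the middle of each of the 9 regions in bp, over the central 300 bp. AP1 matches (circles) occur in the 83.5-kb, 86.0-kb and 128-kb regions. The 120.3-kb region is 197 bp wide, so its 2 NFAT matches lie in the flank.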

How the data were processed

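FAIRE-seq peak lists of 4 samples were used. According to the methods and the labels, the authors used CutAdapt for trimming, Bowtie2 for mapping to Hg19, Picard for the removal of duplicates and MACS2 for broad peaks over total input (versions not given in the sources used here). In the deposited lists each peak has a score, a fold enrichment (a ratio to input), and a p-value and q-value as −log10. Peaks of the autosomes, X and Y that overlapped or touched were joined, and gene positions came from GENCODE release 44 on GRCh37. Samples were grouped by their labels. Named genes and regions are all members of the locus, the genes listed for the common gamma chain family and the 5 genes nearest in summed fold enrichment. The members, gene lists and motifs were chosen with earlier results of these data known. Motifs were searched on both strands in the central 300 bp. Shares have 95% Wilson intervals. No test was made, as each list is 1 library. Alternatives were other windows, joining rules, q-value limits, equal list lengths and each list left out. The steps were tested on simulated peaks and sequences. The tools were samtools 1.23.1, matplotlib 3.10.9, Python 3.11.15, scipy 1.17.1, numpy 2.4.6, pysam 0.24.0 and pandas 2.3.3.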

Additional observations from a re-analysis of the deposited data

Results flagged for a closer look

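The 51.5-kb region was picked out because its calls differed between the lists labelled SW and NS. It had a weak peak in the list labelled NS after DMSO (fold enrichment 3.54, q-value 0.0172) and no peak in the list labelled SW after DMSO. In the list labelled SW after rottlerin its fold enrichment was 0.0424 higher than in the list labelled NS after rottlerin, a log2 ratio of 0.01 against a median of 0.04 over all regions called in both. No opposite movement is shown, because a missing call at unknown depth gives no value. The difference was not tested, since each list is 1 library and the labels of the lists are in doubt.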

How the results depend on the processing

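Of 46 recomputed counts, 40 stayed within 1.5 times the reported ones. With a window of 50 kb the locus held 5 regions, 4 of them without a peak in the list labelled NS after DMSO. When every list was cut to the length of the shortest, 4 of the 6 remaining regions had no such peak, against 41.6% of all regions. Regions with a peak in every list numbered 2 with a window of 200 kb, 4 without the list labelled NS after DMSO and 2 without the list labelled SW after DMSO. No region had a peak in the list labelled NS after DMSO alone under any alternative run. Motif shares were recomputed over the central 500 bp and the whole region, and 20 of 22 stayed inside the reported intervals. The NFAT share was 100.0% and 88.9% in the longer windows, where it was 85.3% and 73.4% over all regions. The GATA share was 77.8% (Wilson 45.3% to 93.7%) in both longer windows. Over regions without a peak in the list labelled NS after DMSO, the GATA share was 50.0% in the central 500 bp, inside that interval. In the whole region it was 37.7%, outside the interval, unlike in the central 300 bp. Read depth is unknown, and weak regions such as that over the *IL2* promoter rest on 1 list. No paired analysis was possible because each group has 1 library.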
